A study of Mus musculus with 13 samples.

Results

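The genes examined here were the 4 kinases that phosphorylate the translation factor eIF2alpha (Eif2ak1, Eif2ak2, Eif2ak3 and Eif2ak4), their substrate Eif2s1, the phosphatase subunits Ppp1r15a and Ppp1r15b that reverse the phosphorylation, and Prkra and Adar, which regulate the kinase PKR (encoded by Eif2ak2). They were chosen by symbol, and all 9 of 9 were among the 19737 genes measured in 13 RNA libraries of mouse microglia, the brain's own macrophages, sequenced after removal of ribosomal RNA. Wild-type mice (WT) given AAV PHP.eB-EGFP, a control vector that carries a green fluorescent protein, made up 3 libraries. The 5xFAD line, a transgenic mouse that expresses mutant human amyloid precursor protein and presenilin in neurons under the Thy1 promoter and forms amyloid plaques, supplied the other 10. Of these, 2 libraries came from 5xFAD mice given the same EGFP vector and 4 from 5xFAD mice given a vector for a circular RNA (circRNA) made from exons of POLR2A. The treatment labels of those 4 libraries read AAV PHP.eB-circPOLR2A(9,10), (9,11), (9,12) and (9,13), whereas the design text gives (9,10) for all 4. The last 4 libraries came from 5xFAD mice with a PKR knockout (PKR KO), for which the labels name no vector. Age, sex and whether animals were pooled are not given in the sources used here. The question was whether the other eIF2alpha kinases, the phosphatase subunits or the PKR regulators differed when PKR was lost or when the circRNA, a type of RNA studied as a PKR inhibitor, was supplied.

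Phosphorylated eIF2alpha slows translation initiation throughout the cell while favouring a small group of stress-response mRNAs such as Atf4, a programme called the integrated stress response. Each kinase senses a different stress: PKR binds double-stranded RNA, HRI (Eif2ak1) responds to heme shortage and mitochondrial stress, PERK (Eif2ak3) to unfolded protein in the endoplasmic reticulum, and GCN2 (Eif2ak4) to amino acid shortage. The phosphatase PP1 removes the phosphate when it is brought to eIF2alpha by GADD34 (Ppp1r15a), which the response itself induces, or by CReP (Ppp1r15b), which is present constitutively. PACT (Prkra) binds PKR and was named as its activator, and ADAR1 (Adar) edits double-stranded RNA and thereby limits PKR activation. The activity and phosphorylation of these proteins are not measured by RNA sequencing.

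To show the sequence context of the genes that differed most between the 5xFAD groups, RefSeq promoter windows (GRCm38.p6; 250 bases before and 50 after the start site) were searched on both strands. A window was found for 8 of the 9 genes. The core of the interferon-stimulated response element, GAAA and GAAA separated by any 2 bases, lay in the windows of Eif2ak2, Eif2s1 and Ppp1r15a and in 3.448% of 32544 promoters of the same length. The windows of these 3 genes are printed 5′ to 3′ on the gene's strand, with the match in capitals. They lie at chr17:78882523-78882822 (minus strand), chr12:78861822-78862121 (plus strand) and chr7:45526219-45526518 (minus strand).
Eif2ak2: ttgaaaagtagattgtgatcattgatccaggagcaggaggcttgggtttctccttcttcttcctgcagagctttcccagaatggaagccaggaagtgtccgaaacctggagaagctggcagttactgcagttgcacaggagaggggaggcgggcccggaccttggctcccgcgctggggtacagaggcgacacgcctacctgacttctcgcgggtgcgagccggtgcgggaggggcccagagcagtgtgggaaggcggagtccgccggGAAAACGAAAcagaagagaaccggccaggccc
Eif2s1: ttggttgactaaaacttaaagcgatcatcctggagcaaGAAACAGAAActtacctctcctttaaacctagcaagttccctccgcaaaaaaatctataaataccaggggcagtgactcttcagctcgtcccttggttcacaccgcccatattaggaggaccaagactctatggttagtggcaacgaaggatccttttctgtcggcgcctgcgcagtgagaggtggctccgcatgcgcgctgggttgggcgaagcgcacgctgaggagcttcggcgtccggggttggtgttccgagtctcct
Ppp1r15a: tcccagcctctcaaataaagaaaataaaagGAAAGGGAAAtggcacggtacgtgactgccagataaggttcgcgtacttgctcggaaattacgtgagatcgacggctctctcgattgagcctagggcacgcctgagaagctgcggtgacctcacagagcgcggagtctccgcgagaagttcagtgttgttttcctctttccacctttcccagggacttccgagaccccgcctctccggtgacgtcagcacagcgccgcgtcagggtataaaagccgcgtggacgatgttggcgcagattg
Counted so that the start site is base 1, the match GAAAACGAAA of Eif2ak2 began at base 19, GAAACAGAAA of Eif2s1 at base -212 and GAAAGGGAAA of Ppp1r15a at base -220. The composite element of ATF4 and C/EBP, TGATGNAA, lay in 3.912% of promoters and in no window of these genes, and the endoplasmic reticulum stress element, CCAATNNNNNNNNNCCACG, in 0.1198% and likewise in none of them. The 2 windows of Eif2ak4 and the 3 of Adar, which start at different sites, held no exact match of the 3 motifs. The Adar window at chr3:89730468-89730767 (plus strand) held gaaagtgaac, which differs from the interferon core only in its last letter. The search for exact strings therefore does not show that Adar lacks such an element. A match is a string of letters and not a measured binding site.

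Microglial markers (9 of 9 listed) summed to 2692 to 4605 FPKM (a fragment count divided by gene length in kilobases and by library size in M, or mega, fragments) in every library. Depth, recovered from the steps of the FPKM values, was 45.2 to 54.9 M fragments in the EGFP and circRNA libraries and 57.8 to 70.0 M in the PKR KO libraries, and each of the 9 genes had 377 to 6602 fragments in a library. Library names stand in the labels of the PKR KO libraries and of no other group and the labels give no batch and, for that group, no vector, so that the knockout, the vector and a batch cannot be told apart. WT replicate 3 stood apart, with oligodendrocyte markers at 1534 FPKM against 332 and 374 in the other WT libraries. PKR KO replicate 2 held 0.00343 FPKM of the Y-linked Eif2s3y, against 3.85 to 6.55 in the other 12 libraries. Nothing in the labels says which libraries come from separate animals, so p-values measure the spread between these libraries. In bulk RNA, fewer cells expressing a gene and less of its RNA in each cell cannot be told apart. All levels below are in FPKM, which is scaled by gene length, and all changes and standard errors (SE) are differences of log2(FPKM + 1) from limma, adjusted with the Benjamini-Hochberg method over 10817 genes within a comparison.

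**Figure D1:**
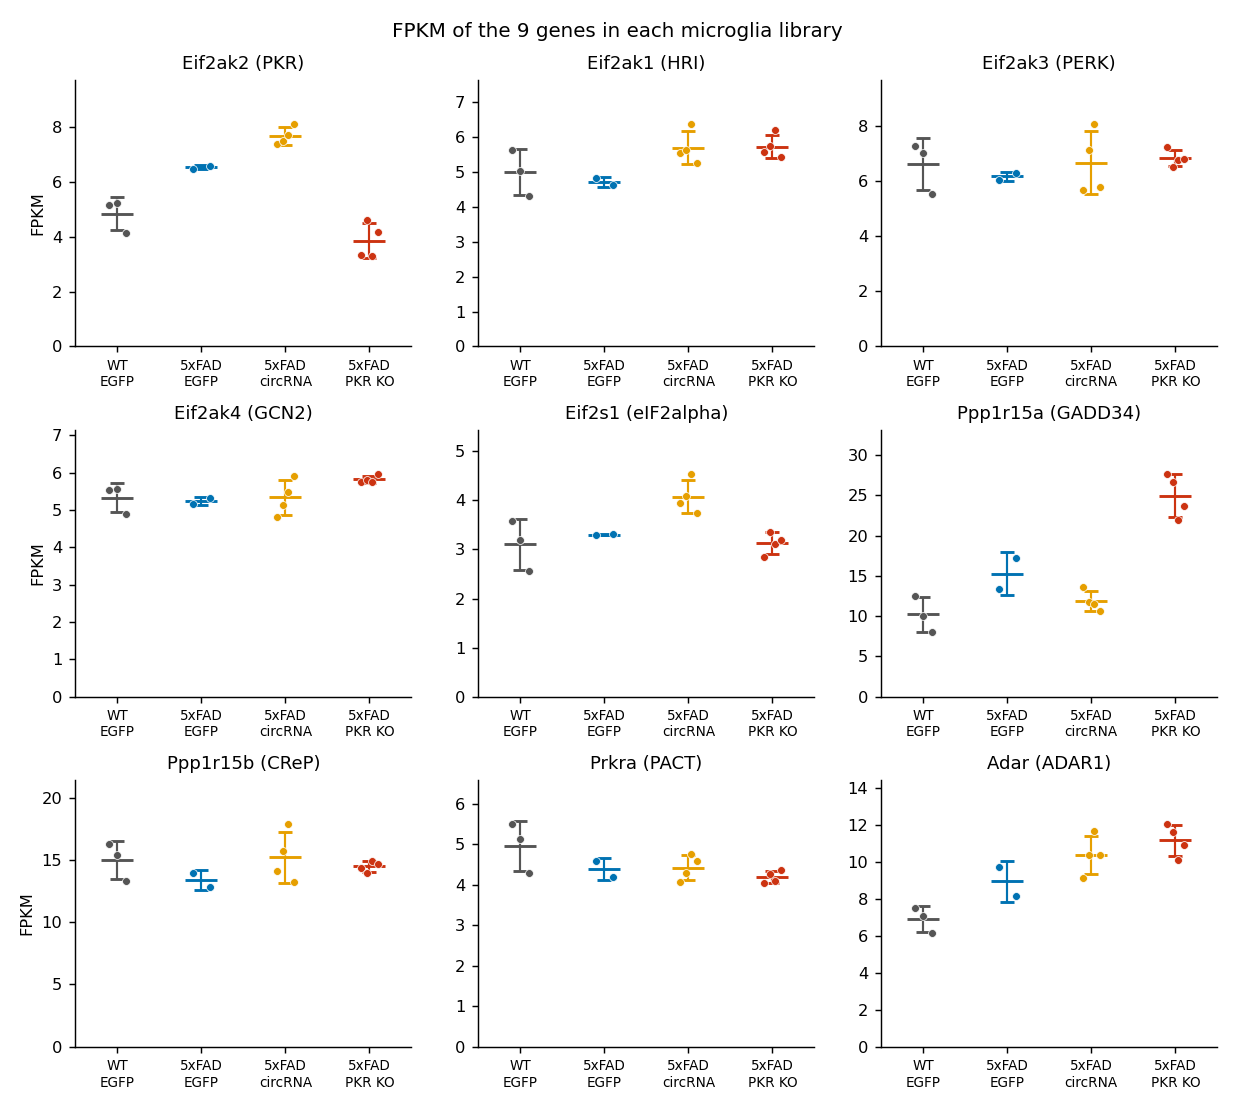
FPKM of each of the 9 genes (vertical axes, starting at 0) in the WT EGFP (n = 3), 5xFAD EGFP (n = 2), 5xFAD circRNA (n = 4) and 5xFAD PKR KO (n = 4) libraries. Points are libraries, horizontal bars are means and whiskers are 1 SD. Eif2ak2 was lowest and Ppp1r15a highest in the PKR KO group, and Eif2ak2 and Eif2s1 were highest in the circRNA group.

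Eif2ak2, the targeted gene, was still detected in the PKR KO libraries. Its levels there were 3.35, 4.61, 3.31 and 4.16 FPKM, a mean of 3.86 ± 0.639 (SD, n = 4). The 5xFAD EGFP libraries had 6.49 and 6.59 FPKM and the WT EGFP libraries 5.18, 5.23 and 4.14. All 4 PKR KO libraries were below both 5xFAD EGFP libraries, and 2 of them lay above the lowest WT library. The PKR KO mean was 0.590 times that of 5xFAD EGFP, a log2 difference of -0.64 (SE 0.11, 95% interval -0.89 to -0.40), and its limma adjusted p of 0.0644 missed the threshold of 0.05. By p-value the gene ranked 13th among 10817 in that comparison. The labels do not say which part of the gene the knockout removes, and a value summed over all exons of the gene does not show whether the remaining RNA can make PKR. The gene lies at chr17:78852564-78882573 on the minus strand (GRCm38).

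With the circRNA vector, Eif2ak2 was measured at 7.37, 7.48, 7.73 and 8.11 FPKM (7.67 ± 0.327, SD, n = 4). Every circRNA library was above both 5xFAD EGFP libraries and above every WT library. Against 5xFAD EGFP the log2 difference was 0.20 (95% interval -0.04 to 0.45) and did not pass (limma adjusted p = 0.739). Against WT EGFP the rise was 0.57 (SE 0.10, limma adjusted p = 0.00118), and against PKR KO it was 0.85 (SE 0.09, limma adjusted p = 0.00147). These 2 calls held in each of the alternative settings and with each library left out in turn. In 5xFAD EGFP against WT EGFP the difference was 0.37 (95% interval 0.11 to 0.63, limma adjusted p = 0.0577), with the 2 groups not overlapping.

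No other eIF2alpha kinase passed the test in any of the 6 comparisons on the values as deposited. With column sums made equal, which moved the median of all genes in the comparisons with WT to between -0.17 and -0.24, Eif2ak3 (-0.25) and Eif2ak4 (-0.24) passed as lower with circRNA than in WT, close to the median of all genes (-0.20) in that fit. Eif2ak1 in PKR KO against WT, 0.17 on the deposited values (limma adjusted p = 0.120), passed as higher under median-ratio scaling (0.20, limma adjusted p = 0.0191) and without WT replicate 1 (0.25, limma adjusted p = 0.0402), in 1 of 7 settings and 1 of 7 fits with a library left out. With equal column sums its sign turned (-0.02). HRI mRNA, Eif2ak1, stood at 5.57, 5.72, 6.18 and 5.41 FPKM in PKR KO, at 5.53, 5.62, 6.36 and 5.23 with circRNA, at 4.81 and 4.61 in 5xFAD EGFP and at 5.63, 5.01 and 4.31 in WT EGFP. Both treated groups lay above the 5xFAD EGFP pair without overlap and overlapped with WT. On the values as deposited their differences from 5xFAD EGFP were of similar size, 0.23 in PKR KO (95% interval 0.03 to 0.44, limma adjusted p = 0.318) and 0.23 with circRNA (95% interval 0.02 to 0.43, limma adjusted p = 0.739), and both comparisons share the same 2 control libraries. The median of all genes was 0.01 in PKR KO and 0.08 with circRNA. Across the alternative settings the difference of Eif2ak1 was 0.18 to 0.28 in PKR KO and 0.13 to 0.27 with circRNA, so the likeness in size depended on scaling. Between circRNA and PKR KO the difference was -0.01, with a 95% interval of -0.17 to 0.16. Of the exon bases of Eif2ak1, 8.59% overlap Aimp2 on the opposite strand, which was listed at 2.07 to 3.97 FPKM, and without a stated strand setting the reads of the pair cannot be told apart there.

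PERK mRNA, Eif2ak3, was the most variable of the kinases among the circRNA libraries, at 5.68, 7.11, 8.06 and 5.77 FPKM. The PKR KO libraries lay closer together, at 7.24, 6.52, 6.77 and 6.79 FPKM, slightly above the 6.06 and 6.29 of 5xFAD EGFP, and WT EGFP covered 5.54 to 7.26. The difference of PKR KO from 5xFAD EGFP was 0.13, and its interval, -0.15 to 0.40, reached both sides of 0. GCN2 mRNA, Eif2ak4, had the narrowest spread of the kinases in PKR KO, at 5.76, 5.81, 5.75 and 5.95 FPKM. The other groups held 5.15 and 5.32 (5xFAD EGFP), 4.82, 5.14, 5.47 and 5.92 (circRNA) and 5.53, 5.57 and 4.88 (WT EGFP). Its difference in PKR KO from 5xFAD EGFP was 0.13 (95% interval -0.04 to 0.30) and with circRNA 0.02 (95% interval -0.15 to 0.19). These intervals bound a rise of either kinase in PKR KO at 0.40 or 0.30 on the log2 scale, and do not show that the levels were equal.

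Within a library, the share of each kinase in the summed FPKM of the 4 does not depend on how libraries were scaled. Eif2ak2 made up 28.8% and 28.9% of the sum in the 5xFAD EGFP libraries, 28.0% to 32.4% with circRNA, 15.0% to 20.3% in PKR KO and 21.9% to 22.9% in WT EGFP. The circRNA range thus enclosed that of 5xFAD EGFP, and PKR KO lay below all other libraries. The sum itself was 21.9 to 22.7 FPKM in PKR KO and 22.5 to 22.8 FPKM in 5xFAD EGFP, while the other 3 kinases together gave 18.1 to 18.7 FPKM in PKR KO against 16.0 and 16.2. This sum of 3 was 16.0 to 19.9 FPKM with circRNA and 14.7 to 18.4 in WT, so that, of the 4 groups, only 5xFAD EGFP and PKR KO did not overlap with each other. The shares are descriptions over these libraries and were not tested.

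**Figure D2:**
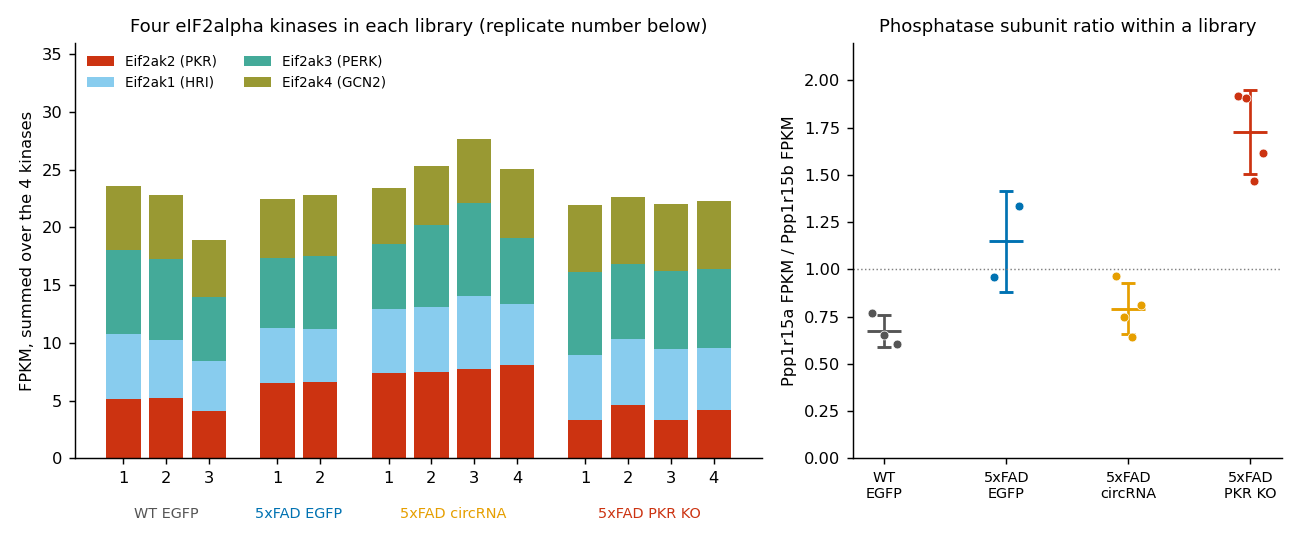
Left, FPKM of the 4 eIF2alpha kinases stacked for each library, labelled by replicate number within its group. Right, the ratio of Ppp1r15a to Ppp1r15b FPKM in each library (points), with group means (bars) and 1 SD (whiskers); the dotted line marks equal levels. Eif2ak2 took 15.0% to 20.3% of the stack in PKR KO against 28.8% and 28.9% in 5xFAD EGFP, and the ratio was 1.47 to 1.92 in PKR KO and 0.641 to 0.965 with circRNA.

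The substrate, Eif2s1 (chr12:78861819-78887010, plus strand), was highest with circRNA. Levels were 3.94, 4.08, 4.53 and 3.75 FPKM with circRNA, 3.29 and 3.31 in 5xFAD EGFP, 2.84, 3.36, 3.11 and 3.20 in PKR KO and 3.58, 3.18 and 2.55 in WT EGFP. All circRNA libraries were above every library of the other 3 groups, which overlapped with each other. The rise was 0.31 against WT EGFP (SE 0.09, limma adjusted p = 0.0186) and 0.30 against PKR KO (SE 0.08, limma adjusted p = 0.0474), and the difference of 0.24 from 5xFAD EGFP did not pass (limma adjusted p = 0.739). The call against PKR KO rested on every library: it was lost with any 1 library left out (limma adjusted p 0.0540 to 0.128). It was also lost under median-ratio scaling (0.0631), column-sum scaling (0.0577), without a filter on low values and with the replicate number added to the fit (0.080). The call against WT was lost without WT replicate 3 (0.21, limma adjusted p = 0.0693), with column sums made equal (0.09, limma adjusted p = 0.355) and with the 2 groups fitted alone (limma adjusted p = 0.0786). In PKR KO, Eif2s1 differed from 5xFAD EGFP by -0.06 (95% interval -0.27 to 0.15).

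Ppp1r15a encodes GADD34 and lies at chr7:45522916-45526268 on the minus strand. Among these genes it had the largest log2 difference, in either direction, in every comparison except circRNA against WT. Its levels were 27.6, 26.7, 21.9 and 23.7 FPKM in PKR KO (25.0 ± 2.63, SD, n = 4), 13.4 and 17.2 in 5xFAD EGFP, 13.6, 11.8, 11.4 and 10.7 with circRNA (11.9 ± 1.23, SD, n = 4) and 12.5, 10.0 and 8.08 in WT EGFP. Every PKR KO library was above every other library, whereas circRNA overlapped with both EGFP groups. Against 5xFAD EGFP the PKR KO mean was 1.63 times as high, a log2 difference of 0.68 (SE 0.16, 95% interval 0.34 to 1.02), whose unadjusted p of 9.19e-04 gave a limma adjusted p of 0.136. It therefore missed the threshold, and passed only when the 2 groups were fitted alone (limma adjusted p = 0.0216). Without PKR KO replicate 2, the library low in Eif2s3y, the difference was 0.65 (limma adjusted p = 0.354), and that of Eif2ak2 was -0.72 (limma adjusted p = 0.121). With circRNA the difference from 5xFAD EGFP had the opposite sign, -0.33 (95% interval -0.67 to 0.01, limma adjusted p = 0.739).

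The test between circRNA and PKR KO, which is also the test of whether the 2 changes from the shared control differed, gave -1.01 for Ppp1r15a (SE 0.13, 95% interval -1.29 to -0.73, limma adjusted p = 0.00284). The gene ranked 12th of 10817 by p-value, and the call held in all alternative settings and with each library left out. Against WT EGFP, Ppp1r15a rose by 1.22 in PKR KO (SE 0.14, limma adjusted p = 3.42e-05), a mean 2.44 times as high. In 5xFAD EGFP it rose by 0.55 (SE 0.16, limma adjusted p = 0.0446). That call was lost without WT replicate 3 (0.40, limma adjusted p = 0.0840) and without WT replicate 2 or either 5xFAD EGFP library. It was also lost with the 2 groups fitted alone (limma adjusted p = 0.211), with equal column sums (0.0834), without a filter and with the replicate number added to the fit.

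Ppp1r15b, the constitutive subunit CReP, did not pass in any comparison on the values as deposited. With equal column sums it passed as lower than in WT in 5xFAD EGFP (-0.31, limma adjusted p = 0.0199), with circRNA (-0.26, limma adjusted p = 0.0129) and in PKR KO (-0.26, limma adjusted p = 0.00987), where the medians of all genes were -0.17 to -0.24. It stood at 14.4, 14.0, 15.0 and 14.7 FPKM in PKR KO, 13.9 and 12.8 in 5xFAD EGFP, 14.1, 15.7, 17.9 and 13.2 with circRNA and 16.3, 15.4 and 13.3 in WT EGFP. The 4 groups overlapped apart from 5xFAD EGFP and PKR KO, which lay side by side. Its difference in PKR KO from 5xFAD EGFP was 0.11 (95% interval -0.14 to 0.35). The order of the pair was accordingly not the same in all groups: Ppp1r15a was 0.607 to 0.768 times Ppp1r15b in WT EGFP, 0.960 and 1.34 times in 5xFAD EGFP, 0.641 to 0.965 times with circRNA and 1.47 to 1.92 times in PKR KO. Ppp1r15a was thus below its partner in all WT and circRNA libraries and above it in all PKR KO libraries, and this ratio, too, is free of the scaling between libraries.

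Of the regulators of PKR, Prkra stayed within a narrow range. Its levels were 4.05, 4.27, 4.10 and 4.37 FPKM in PKR KO, 4.58 and 4.19 in 5xFAD EGFP, 4.08, 4.28, 4.76 and 4.58 with circRNA and 5.49, 5.12 and 4.29 in WT EGFP. Only WT replicates 1 and 2 were above 5 FPKM. The difference of PKR KO from 5xFAD EGFP was -0.05 (95% interval -0.24 to 0.13) and that of circRNA 0.01 (95% interval -0.18 to 0.19). Against WT, PKR KO differed by -0.19 (limma adjusted p = 0.0596), and this passed under median-ratio scaling (-0.17, limma adjusted p = 0.0364) and with equal column sums (-0.39, limma adjusted p = 5.53e-04), as well as without WT replicate 3 (-0.28, limma adjusted p = 0.00907). With circRNA the difference from WT of -0.13 (limma adjusted p = 0.222) passed under the same scalings (-0.19, limma adjusted p = 0.0276, and -0.38, limma adjusted p = 0.00104) and without WT replicate 3 (-0.22, limma adjusted p = 0.0384).

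Adar (chr3:89715022-89753446, plus strand) was higher in the treated 5xFAD groups than in WT. WT EGFP libraries had 7.49, 7.07 and 6.13 FPKM, 5xFAD EGFP 9.72 and 8.18, circRNA 9.11, 10.4, 11.7 and 10.4, and PKR KO 12.0, 11.6, 10.1 and 10.9. Every 5xFAD library of any treatment was above every WT library. With circRNA it rose over WT by 0.53 (limma adjusted p = 0.00164, SE 0.10). In PKR KO it rose by 0.62 (limma adjusted p = 3.83e-04, SE 0.10), and both calls held in all alternatives. In 5xFAD EGFP the difference from WT was 0.33 (95% interval 0.08 to 0.58, limma adjusted p = 0.0783). Against 5xFAD EGFP, PKR KO differed by 0.29 (95% interval 0.06 to 0.53, limma adjusted p = 0.284) and circRNA by 0.19 (95% interval -0.04 to 0.43, limma adjusted p = 0.739), and between circRNA and PKR KO the difference was -0.10 (95% interval -0.29 to 0.09). Of the exon bases of Adar, 16.8% overlap Chrnb2 on the opposite strand, a gene listed at no more than 0.201 FPKM.

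**Figure D3:**
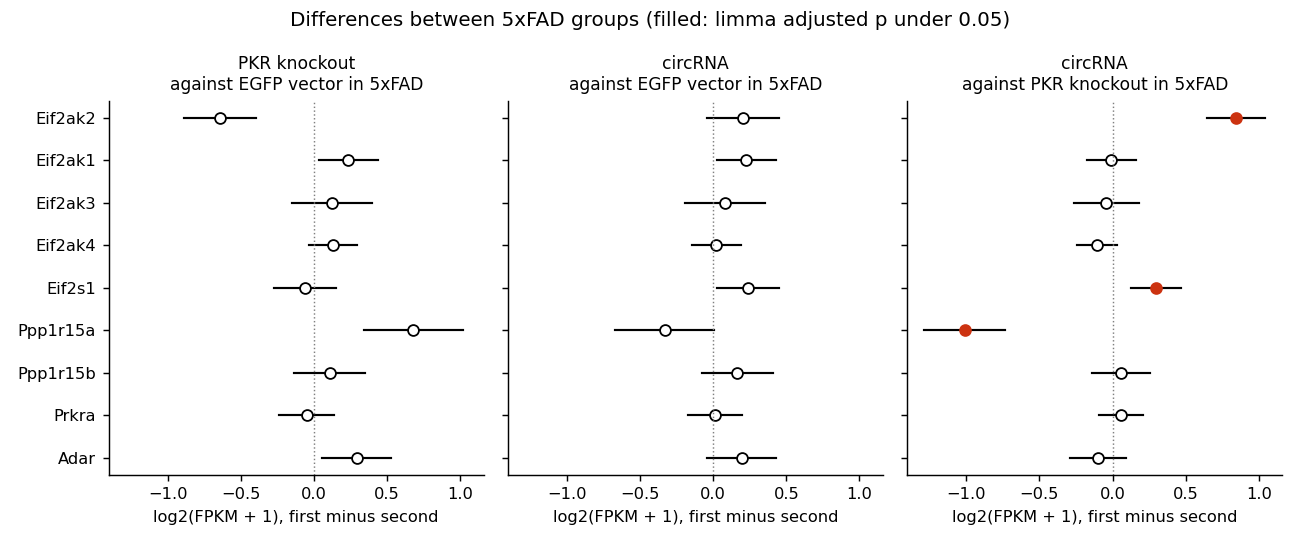
Differences of log2(FPKM + 1), first group minus second, with 95% intervals from limma for the 9 genes in 3 comparisons among the 5xFAD groups. Filled points had an adjusted p under 0.05. None is filled in the comparisons with 5xFAD EGFP, and Eif2ak2 (0.85), Eif2s1 (0.30) and Ppp1r15a (-1.01) are filled between circRNA and PKR KO.

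Counted over the 9 genes, limma called 0 in PKR KO against 5xFAD EGFP, where 0.0832% of all genes tested were called. At an unadjusted p under 0.05 there were 4 (Eif2ak1, Ppp1r15a, Adar and Eif2ak2, the gene that the knockout targets), against 13.0% of all genes. By voom on the recovered fragments, 0 were called as well. The groups did not overlap for 6 genes higher in PKR KO (17.7% of all genes) and 1 lower (the targeted Eif2ak2; 17.0%). In circRNA against 5xFAD EGFP, limma and voom called 0 of 9, and limma called 0% of all genes. Unadjusted, 2 passed (Eif2ak1 and Eif2s1; 4.83% of all genes), and 3 were higher without overlap (Eif2ak1, Eif2ak2 and Eif2s1; 16.6%). The median difference over the 9 genes was 0.13 in PKR KO and 0.16 with circRNA, beside 0.01 and 0.08 over all genes.

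Between circRNA and PKR KO, 3 of 9 were called, where 6.19% of all genes were: Eif2ak2 and Eif2s1 higher with circRNA (4.28%) and Ppp1r15a lower (1.91%). Eif2ak2 is the gene that the knockout targets, so its call is no result about the set, and that of Eif2s1 was lost with any 1 library left out. The shares higher and lower depended on scaling: with median-ratio factors most of the genes called were lower with circRNA. In 5xFAD EGFP against WT EGFP 1 was called higher (Ppp1r15a), as were 7.65% of all genes, and in circRNA against WT 3 were (Eif2ak2, Eif2s1 and Adar), as were 17.8%. In PKR KO against WT, 2 were called higher (Ppp1r15a and Adar; 17.5% of all genes) and 1 lower (Eif2ak2; 19.4%). The last of these, Eif2ak2 at -0.27 (limma adjusted p = 0.0486), overlapped between the groups and missed the threshold with the 2 groups alone (limma adjusted p = 0.120), under median-ratio scaling (0.0730), without a filter (0.0598) and with voom (0.0505). It held in 3 of 7 settings and in 2 of 7 fits with a library left out, those without WT replicate 3 or PKR KO replicate 2, and the limma adjusted p was 0.0519 to 0.144 without any other library. In the 2 comparisons of the treated groups with WT, 17.5% or more of all genes were called higher on the values as deposited, so that a call there says little about these genes in particular. With equal column sums most of the genes called in these 2 comparisons were lower than in WT. The calls of Adar in both, of Eif2ak2 with circRNA and of Ppp1r15a in PKR KO as higher than in WT held in that fit.

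Other cell types differed between the groups. In PKR KO, the summed level of the 5 oligodendrocyte markers was 213 to 359 FPKM, below the 597 and 641 of 5xFAD EGFP, and with circRNA it was 281 to 748 FPKM. Neuron markers summed to 8.58 to 15.4 FPKM in PKR KO and 20.0 and 23.5 in 5xFAD EGFP, astrocyte markers to 133 to 215 and 138 and 200, and endothelial markers to 31.9 to 44.3 and 22.3 and 31.2. Monocyte and neutrophil markers stood at 16.3 FPKM in PKR KO replicate 4, against 1.23 to 4.48 in the other PKR KO libraries and at most 7.33 in any other group. Without that library, PKR KO against 5xFAD EGFP gave -0.68 for Eif2ak2 and 0.70 for Ppp1r15a (limma adjusted p = 0.127 and 0.197). T and B cell markers were at most 0.229 FPKM in any library. Against WT, the 4 border macrophage markers summed to 28.8 to 46.0 FPKM in WT and 10.5 to 19.5 in the 5xFAD libraries, without overlap, and the 4 mural cell markers to 34.3 to 79.5 and 13.4 to 35.1. The part of these markers in the differences of the 9 genes, those against WT included, was not tested.

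The order of the 9 genes by mean level, per length, put the phosphatase subunits first in every group and Eif2s1 last. Next to them came Adar in every group, overlapping with Ppp1r15a only with circRNA. In WT EGFP, the genes from Adar to Eif2ak2 (6.90 to 4.85 FPKM) each overlapped with the next in range. Within each of the 3 WT libraries, however, Eif2ak3 was the highest kinase, at 29.4% to 30.8% of the summed FPKM of the 4, while the order of the other 3 changed from library to library. In 5xFAD EGFP Eif2ak2 was the highest of the kinases, followed by Eif2ak3, Eif2ak4 and Eif2ak1, with no overlap between neighbours in the 2 libraries. With circRNA Eif2ak2 again led, and overlapped with Eif2ak3. In PKR KO it was the lowest kinase, overlapping with Prkra above it and in range with Eif2s1, which was below it in all 4 libraries, while Eif2ak3 was above the overlapping pair Eif2ak4 and Eif2ak1 in all 4 libraries.

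Genes of the same pathway outside these 9 were described from 5 lists. No gene of any list passed in PKR KO or circRNA against 5xFAD EGFP by limma: 0 of 11 eIF2 and eIF2B subunits and partners, 0 of 4 PP1 subunits and partners, 0 of 6 activators and inhibitors of the other kinases, 0 of 13 other double-stranded RNA binding proteins and 0 of 14 integrated stress response targets. At an unadjusted p under 0.05 the counts in PKR KO were 0, 0, 1, 2 and 3, where 13.0% of all genes passed, and with circRNA 2, 0, 0, 1 and 0, where 4.83% did. The list medians in PKR KO were 0.03, 0.07, 0.18, -0.03 and 0.15, beside 0.01 over all genes. Nck2, Adarb2, Trib3, Chac1 and Asns had a mean under 1 FPKM and were not tested.

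In PKR KO against 5xFAD EGFP, the largest differences in each list were as follows. Eif2s3y, the Y-linked copy of the eIF2gamma gene, differed by -0.92, and Eif2b4, a subunit of the exchange factor eIF2B, by 0.18. Eif2s3y stood at 0.00343 FPKM in PKR KO replicate 2. The other PKR KO libraries had 4.60, 3.85 and 5.65 FPKM, also below the 6.19 and 5.70 of 5xFAD EGFP. Ppp1cb, a catalytic subunit of PP1, differed by -0.12 and the adaptor Nck1 by 0.11. Hspa5, the chaperone BiP that holds PERK inactive, had 130, 97.7, 187 and 120 FPKM in PKR KO and 109 and 75.8 in 5xFAD EGFP, which overlapped (0.51, limma adjusted p = 0.404), and the GCN2 activator Gcn1 differed by 0.31 (limma adjusted p = 0.380). Zbp1, a sensor of Z-form nucleic acids, differed by 0.47 (limma adjusted p = 0.238) and the RNA editor Adarb1 by 0.32 (limma adjusted p = 0.216). Vldlr differed by -0.61 (limma adjusted p = 0.316) and Atf3, a transcription factor of the stress response, by 0.57 (limma adjusted p = 0.253). None of these differences passed the test.

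With circRNA the corresponding genes were Eif2s2 (0.27) and Eif2b2 (0.22), Ppp1cb (0.10) and Ppp1ca (0.09), Dnajc3 (0.23) and Gcn1 (0.08), Zbp1 (0.50) and Strbp (-0.16), and Atf3 (-0.42) and Nupr1 (0.23), each with a limma adjusted p of 0.739 or more. Zbp1 differed from 5xFAD EGFP in the same direction in both treated groups, which share their control.

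Between circRNA and PKR KO, 1 of 13 RNA binding proteins and 1 of 14 stress response targets passed, shares near the 6.19% of all genes called. Adarb1 was measured at 5.13, 5.10, 5.69 and 5.19 FPKM with circRNA and 6.75, 6.52, 7.27 and 6.88 in PKR KO, a log2 difference of -0.32 (limma adjusted p = 0.0328) without overlap. This call was lost with any library but circRNA replicate 3 left out (limma adjusted p 0.0606 to 0.0937). Atf3 was measured at 90.5, 76.7, 66.4 and 62.6 FPKM with circRNA and 149, 161, 126 and 154 in PKR KO, so that it fell by 0.99 (limma adjusted p = 0.00794), again without overlap, and this call held with each library left out. Atf4, whose translation phosphorylated eIF2alpha favours, had 30.4, 27.9, 27.0 and 22.0 FPKM in PKR KO and 22.8, 23.4, 28.0 and 21.3 with circRNA, which overlapped. Ddit3, a target of ATF4 that encodes CHOP, had 6.93 to 8.56 and 6.43 to 8.76 FPKM. Atf3 therefore differed along with Ppp1r15a, whereas Atf4 and Ddit3 did not pass.

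Against WT, the stress response list had 2 of 14 called higher in 5xFAD EGFP (7.65% of all genes), 4 of 14 with circRNA (17.8%) and 4 of 14 in PKR KO (17.5%), and 1 of 14 called lower in PKR KO (19.4%). The count was thus larger where more of all genes were called. In 5xFAD EGFP these were Atf3 (1.58) and Psat1 (1.39), with circRNA Atf3, Ddit3, Nupr1 and Psat1, and in PKR KO Atf3 (2.15), Atf4 (0.46), Ddit3 (0.37) and Psat1 as rises and Vldlr as a fall. Psat1, a serine synthesis enzyme, was at 19.5 to 25.7 FPKM in all 5xFAD libraries and at 5.66, 5.34 and 12.3 in WT. In the other lists, calls against WT went in both directions. Among the 6 activators and inhibitors, the HRI activator Dele1 was called lower in 5xFAD EGFP (-0.33, limma adjusted p = 0.0428; 6.35% of all genes were called lower) and with circRNA (-0.30, limma adjusted p = 0.0196; 8.05%), and Hspa5 was the 1 called higher in PKR KO. Among the RNA binding proteins, Zbp1 and Adarb1 were called higher in all 3 comparisons, at 0.99 and 0.63 in 5xFAD EGFP, 1.49 and 0.63 with circRNA and 1.46 and 0.95 in PKR KO. Of the 11 genes listed as eIF2 and eIF2B subunits and partners, 3 were called higher with circRNA (Eif2s2, Eif2s3x and Eif2a) and 2 in PKR KO (Eif2s3x and Eif2a), where Eif2b1 was called lower (-0.30). Despite its name, Eif2a is not the gene of eIF2alpha, which is Eif2s1. The X-linked Eif2s3x stood at 6.12 FPKM in PKR KO replicate 2, the library low in Eif2s3y, and at 3.91 to 4.28 in the other 3, and its difference from WT went from 0.33 to 0.22 (limma adjusted p = 0.0303) without that library. Ppp1cb was the 1 of 4 PP1 subunits and partners called, lower in PKR KO (-0.26). With 1 library left out, the calls of Dele1 in both comparisons, of Eif2s2, Ddit3 and Nupr1 with circRNA, and of Eif2s3x, Eif2b1, Ppp1cb and Vldlr in PKR KO were each lost at least once, while the other list calls against WT named here held. Hspa5 rose in PKR KO against WT by 1.18, from 57.6 ± 11.1 (SD, n = 3) to 134 ± 37.9 FPKM (SD, n = 4).

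The genes whose pattern was most like that of 3 of the 9 were found by Pearson's r of log2(FPKM + 1) among the genes tested, as a description over libraries that share groups, preparation and sequencing. Over the 9 libraries with the PKR gene intact, Eif2ak2 was most like Apobec1 (r = 0.985), Sp140 (0.984), Arl8a (0.982), Galnt3 (0.981) and H2-M3 (0.980). Adar had an r of 0.933 with Eif2ak2 over those 9 libraries, of 0.573 there with the group means removed, and of 0.036 over all 13. Across the 13 libraries Adar was most like Larp1 (0.981), Slfn2 (0.980), Ogfr (0.977), Mvp (0.976) and Asna1 (0.974). The ratio of Eif2ak2 to Adar FPKM was 0.661 to 0.809 in the 9 libraries with PKR intact and 0.278 to 0.397 in PKR KO.

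Ppp1r15a was most like Zfp36 (r = 0.990), Nfkbia (0.971), Junb (0.962), Zc3h12a (0.961) and Ier2 (0.961) over 13 libraries. Zfp36, which encodes an RNA-binding protein that promotes mRNA decay, was at 206 to 265 FPKM in PKR KO, 111 and 129 in 5xFAD EGFP, 73.4 to 109 with circRNA and 45.3 to 92.2 in WT. With the group means removed, r was 0.923 for Zfp36 and 0.675 to 0.798 for the other 4. Each of the 5 was higher in every PKR KO library than in any other library, as was Ppp1r15a. Under Spearman's rho, 1 of the 5 genes most like Ppp1r15a, 1 of those most like Adar and 0 of those most like Eif2ak2 stayed among the first 5.

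**Figure D4:**
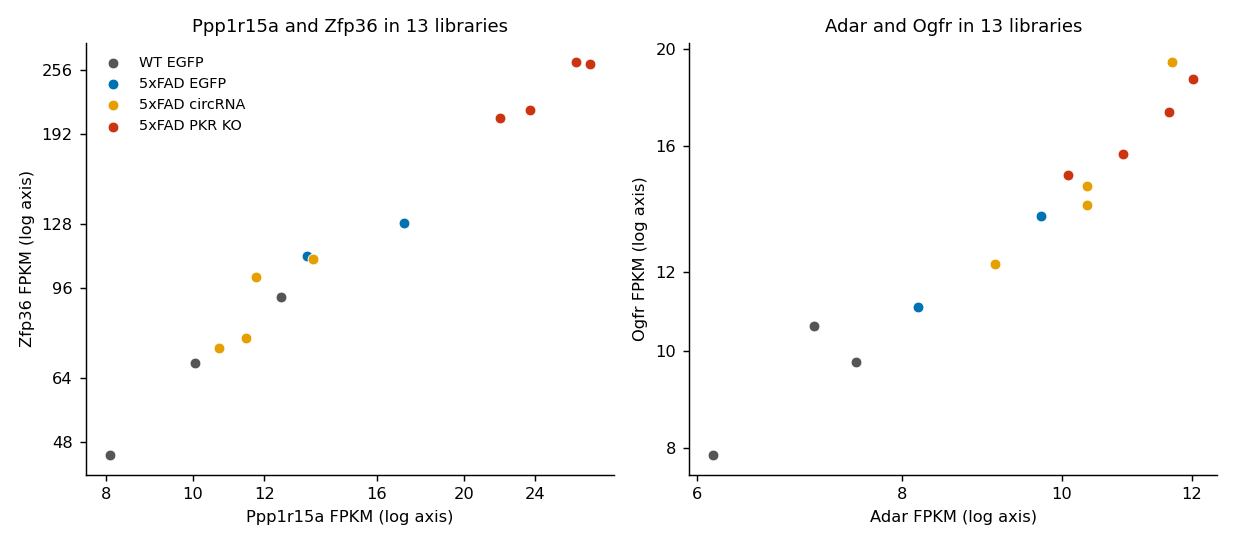
FPKM on log axes of Ppp1r15a against Zfp36 (left) and Adar against Ogfr (right) in the 13 libraries, coloured by group. The 4 PKR KO libraries lie apart at the upper right for Ppp1r15a, at 21.9 to 27.6 FPKM, while for Adar they lie among the circRNA libraries, at 10.1 to 12.0 FPKM.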

How the data were processed

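Total RNA of microglia was extracted with TRIzol, depleted of ribosomal RNA and made into stranded libraries that were sequenced on a NovaSeq instrument, per the labels' protocols. The authors deposited 1 table of FPKM values with a column for each library. HISAT2 2.1.0, Bowtie2 2.3.5, featureCounts 1.5.1 and the build mm10 stand in the submitters' processing notes, and the annotation and strand setting are not given in the sources used here. FPKM is scaled by each library's total, so a few abundant genes that change can shift the others.

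Libraries were grouped by their titles. Genes that averaged 1 FPKM or more across the 13 libraries (10817) entered, as log2(FPKM + 1), 1 linear model in limma 3.58.1 (R 4.3.3) with a mean for each of 4 groups, 9 residual degrees of freedom and eBayes with a trend, two-sided, adjusted within each of 6 comparisons at 0.05. The scale understates changes of low genes. Alternatives were a pseudocount of 0.1, no filter, equal column sums, median-ratio size factors, 2 groups alone, the replicate block, each library left out and, added after seeing the data, voom on the recovered fragments. Depth came from FPKM steps with exon lengths of GENCODE M21 (GRCm38): 79.9% of 47122 values up to 0.3 FPKM were whole fragments within 0.02, against 4% by chance. Counting error is the only error such depth covers.

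The 9 genes, the lists and the motifs were chosen with earlier results of these data known. All 9 are named, as are list genes that passed among the 5xFAD groups, the 2 largest differences in each list (a rule for every comparison, printed for those with 5xFAD EGFP), and the 5 genes most like Eif2ak2, Adar and Ppp1r15a. Other genes (Atf4, Ddit3 and Psat1 among the targets, and those given for the comparisons with WT) were named after their values were seen. A set of cell type markers was listed likewise. A result of another listed gene is not reported here.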

Additional observations from a re-analysis of the deposited data

How the results depend on the processing

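The calls of Eif2ak2 and Ppp1r15a between circRNA and PKR KO, of Eif2ak2 and Adar with circRNA against WT, and of Ppp1r15a and Adar in PKR KO against WT held in all 7 alternative settings and with each library left out. Over all comparisons, 327 of the members' values kept their direction and side of the threshold across settings and 24 changed sign. With the sign kept, 13 gained a call and 14 lost it. With libraries left out 301 kept both, 29 changed sign, 3 gained a call and 18 lost it. Every sign change was of a value that had not passed on the table as deposited. The cause was not tested. In PKR KO against 5xFAD EGFP, 9 genes were called, but 0 with a pseudocount of 0.1, 0 without a filter, 0 with equal column sums, 0 with voom, 46 with median-ratio factors, 577 with the 2 groups alone and 22 with the replicate block, and 0 to 2 with 1 library left out. Of the 9 members, 1 was called there with median-ratio factors (Eif2ak2, limma adjusted p = 0.0440) and 2 with the 2 groups alone (Eif2ak2 and Ppp1r15a). In 5xFAD EGFP against WT, 0 members were called without a filter, 0 with the 2 groups alone, 0 with the block, 2 with equal column sums (Ppp1r15b and Prkra, lower) and 3 with median-ratio factors (Ppp1r15a, Eif2ak2 and Adar), and 0 to 1 with a library left out. Genes called there went from 1514 to 3709 with equal column sums and 509 with the 2 groups alone (566 to 1998 with a library left out). With equal column sums, members called against WT were 6 with circRNA and 5 in PKR KO, and genes called 5676 (against 2796; 1725 with the 2 groups alone) and 6595 (against 3997), with 4681 and 5421 of them lower against 871 and 2099. Between circRNA and PKR KO, 670 genes were called (463 higher with circRNA), 147 to 506 with a library left out, 683 with equal column sums (339 higher) and 941 with median-ratio factors (260 higher).

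Sign changes with equal column sums were Eif2ak3 (-0.019), Eif2ak4 (-0.077) and Prkra (-0.085) in circRNA against 5xFAD EGFP, Eif2s1 (-0.058) in 5xFAD EGFP against WT, Eif2ak1 (-0.082), Eif2ak3 (-0.25), Eif2ak4 (-0.24), Ppp1r15a (-0.053) and Ppp1r15b (-0.26) in circRNA against WT, and Eif2ak1 (-0.025), Eif2ak3 (-0.16), Eif2ak4 (-0.089) and Eif2s1 (-0.16) in PKR KO against WT. With median-ratio factors they were Eif2ak3 (-0.0064), Eif2ak4 (-0.065) and Prkra (-0.074) in circRNA against 5xFAD EGFP, Eif2ak4 (0.0079) in 5xFAD EGFP against WT, Ppp1r15b (-0.038) and Prkra (-0.022) between circRNA and PKR KO, and Eif2ak3 (-0.057), Eif2ak4 (-0.058) and Ppp1r15b (-0.052) in circRNA against WT. With a library left out, Prkra ranged from -0.10 to 0.00045 in PKR KO against 5xFAD EGFP. In circRNA against 5xFAD EGFP the ranges were -0.043 to 0.061 (Prkra), -0.0024 to 0.14 (Eif2ak3) and -0.023 to 0.060 (Eif2ak4). In 5xFAD EGFP against WT they were -0.14 to 0.014 (Eif2ak1), -0.071 to 0.0088 (Eif2ak4) and -0.026 to 0.16 (Eif2s1). Between circRNA and PKR KO they were -0.055 to 0.025 (Eif2ak1), -0.13 to 0.018 (Eif2ak3) and -0.018 to 0.12 (Ppp1r15b). Against WT they were -0.10 to 0.066 (Eif2ak3), -0.050 to 0.041 (Eif2ak4) and -0.065 to 0.075 (Ppp1r15b) with circRNA, and -0.12 to 0.014 (Ppp1r15b), -0.058 to 0.11 (Eif2ak3) and -0.087 to 0.097 (Eif2s1) in PKR KO.

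The replicate numbers are shared between groups, but the labels do not say that they pair animals, so they were not used as pairs in the main fit. Deviations of same-numbered libraries from their group means correlated at -0.42 to 0.69 over the pairs. The mean r of same-numbered pairs was 0.02 to 0.33 over the comparisons, and that of the other pairs -0.11 to -0.02. Deviations within a group cancel out, most plainly with 2 libraries, so these values cannot decide whether the numbers pair animals. With the replicate block, Ppp1r15a in PKR KO against 5xFAD EGFP was 0.81 (limma adjusted p = 0.058) and Eif2ak2 -0.63 (0.062), Ppp1r15a in 5xFAD EGFP against WT was 0.45 (0.068), Eif2s1 between circRNA and PKR KO had an adjusted p of 0.080, and Eif2ak4 changed sign in circRNA against 5xFAD EGFP (-0.00044) and against WT (-0.025). Each of the 9 genes had 377 or more fragments in every library, and the 5xFAD EGFP group, with 2 libraries, limits the precision of every comparison that uses it.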
